A study of Aedes aegypti with 48 samples.

Results

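In wild-type (WT) females of the mosquito Aedes aegypti, a set of 150 genes had its highest transcript level at ZT1, the first of 4 sampled times of day, and this report describes those genes in WT and in a line without a functional Cycle gene (Cyc KO). Zeitgeber time (ZT) counts hours from lights on. A gene was eligible if its mean WT level was at least 5 CPM (the count of the gene times 1000000 over all counts on genes in that library), if its mean log2(CPM + 0.5) was highest at ZT1, and if every ZT1 library lay above every library of its lowest time point. Of 19804 genes in the files, 8782 reached that level, 1849 of them were highest at ZT1 and 338 met the whole rule, and the 150 with the widest range between the 4 WT means were taken. WT values chose the genes, so WT differences between ZT1 and later time points are given as a description without a test. The rule favours WT levels that are high at ZT1 and low at the lowest time point. Gaps between KO and WT libraries at those times are thus descriptions too. The time course in Cyc KO libraries, which the rule did not use, carries the tests.

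The KO group holds Cyc KO females and the WT group females of the wild type (Liverpool strain), all reared at 27 °C with 12 h of light and 12 h of dark and collected 5 days after emergence at ZT1, ZT5, ZT9 and ZT13. Each library is polyadenylated RNA from a pool of 10 whole females, with 6 libraries labelled for each of the 8 groups. Counts on genes ran from 10670669 to 33232780 per library. The library labelled KO ZT13 replicate 1 held exactly the counts of WT ZT9 replicate 2 and was left out, which leaves 23 KO and 24 WT libraries. That WT library stayed in, and without it 143 of the 150 genes were still chosen. A long wavelength opsin of the eye (AAEL006259) had a KO median of 9369 CPM and a WT median of 8420 CPM, and the salivary prosialokinin precursor (AAEL000229) had a KO median of 26.2 CPM and a WT median of 23.03 CPM, so RNA of head and salivary gland was present in both. In whole bodies, fewer cells of a type and less RNA per cell cannot be told apart.

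The insect clock is a loop of transcription factors. The proteins Clock and Cycle pair on DNA and switch on genes such as period and timeless, whose products later shut the pair down, and in the second loop other factors drive Clock or Cycle itself at another time of day. Light also sets the expression of many genes directly, so that a light and dark cycle can give a daily pattern without a working clock. Aedes aegypti females are active by day, and ZT1 falls in the early morning.

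The 150 genes were of ordinary abundance, with a median mean WT level of 31.1 CPM, against 32.7 CPM over all genes of the minimum level, and extremes of 5.40 and 2344 CPM. Their lowest WT mean came at ZT13 in 109 genes, at ZT9 in 26 and at ZT5 in 15, and in 73 genes the WT means stood in the order ZT1, ZT5, ZT9, ZT13 from high to low. The WT range was 0.52 on the log2 scale at the median and 0.34 to 2.31 at the extremes, and it exceeded 1 (a doubling) in 17 genes. At the edge of the list the last 3 genes inside were AAEL012685, AAEL005582 and AAEL013879 with ranges of 0.348, 0.345 and 0.344, and the first 3 outside were AAEL005177, AAEL011234 and AAEL025237 with 0.344, 0.343 and 0.342. Ranges thus differed little across the border. The study names 5 of the genes, its functional terms cover 68, and 80 have neither, so many are given by identifier alone.

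In Cyc KO females, most of these genes were also lower at their lowest WT time point than at ZT1. At the time point that was lowest in WT, 99 of the 150 genes were lower than at ZT1 in KO and 0 were higher (edgeR's quasi-likelihood test, Benjamini-Hochberg adjusted p below 0.05 over all tested genes). The lower ones made up 66% of the list, whereas of 8747 genes tested at their own lowest WT time point 9.95% were lower and 1.11% higher. Only 6208 genes of the minimum level were lowest in WT after ZT1. The 8747, and the sets of all tested genes below, thus also hold genes under that level. The KO difference was below 0 in 140 genes and above 0 in 10, where 50.1% of all genes of the minimum level were below 0. Its median was -0.31 in KO and -0.52 in WT on the scale of log2(CPM + 0.5), and the median KO difference of all genes was near 0. One member, AAEL023559, had too few KO counts to be tested, so 149 entered the fit. P-values measure the spread between pools.

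**Figure D1:**
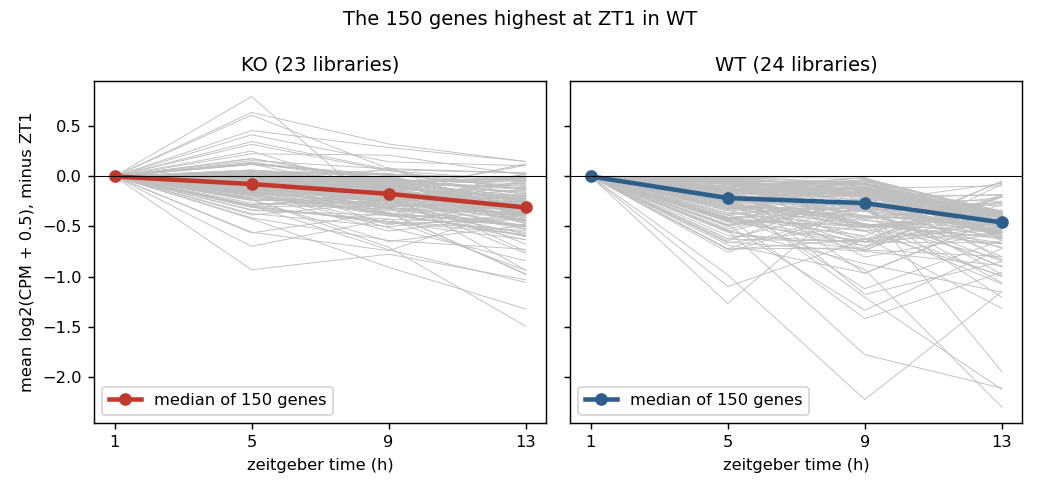
Mean log2(CPM + 0.5) at each zeitgeber time minus the mean at ZT1, for each of the 150 genes (grey lines) and their median (coloured), in KO (left, 23 libraries) and WT (right, 24 libraries). Every WT line lies at or below 0 because the genes were chosen for it. KO lines spread to both sides of 0 at ZT5, and the KO median is below 0 at ZT13.

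Most members were lower in KO at ZT13, just after lights off, and fewer earlier in the day. At ZT13 99 genes were lower than at ZT1 in KO and 0 higher, where 8.06% of 11989 tested genes were lower and 7.01% higher. At ZT9 44 were lower (2.1% of all tested) and 0 higher (0.826% of all tested). At ZT5 20 were lower (1.27% of all tested) and 1, AAEL022261, was higher (1.03% of all tested), by 0.72 on the log2 scale. The counts at ZT5 and ZT9 depended on single libraries, among them KO ZT1 replicate 1, without which 9 and 23 genes were lower, and KO ZT1 replicate 2, without which 47 were lower at ZT5. The ZT5 count of lower members was also 8 by library size, 36 with DESeq2, 38 in 1 fit of KO and WT and 13 without a filter on low counts, and with KO ZT13 replicate 1 kept it was 13 and the ZT9 count 27. At ZT13 the count stayed between 69 and 106 with any KO library left out. In place of the 0 higher members, an unadjusted p below 0.05 gave 1 at ZT9, 0 at ZT13 and 0 at the WT low, and DESeq2 gave 0 at each. A test for any difference among the 4 KO time points called 82 genes (9.26% of all tested).

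The members can be split by the time of their WT low. Of the 109 genes lowest in WT at ZT13, 87 were lower in KO at ZT13, against 13.9% of the other tested genes lowest in WT then. Of the 26 lowest at ZT9, 10 were lower in KO at ZT9 (3.28% of the others). Of the 15 lowest at ZT5, 2 were lower in KO at ZT5 (1.35% of the others). Median KO differences for these groups were -0.35, -0.28 and -0.11, beside WT differences of -0.49, -0.66 and -0.55. Whether the groups differ from each other was not tested.

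In KO the order of the time points was often that of WT, and the differences were mostly smaller. The highest KO mean fell at ZT1 in 106 of the 150 genes (17.5% of all genes of the minimum level) and at ZT5 in 38, where 48.04% of all genes had it. KO means stood in the order ZT1, ZT5, ZT9, ZT13 in 68 genes (7.53% of all), and 47 genes had that order in both KO and WT. These means were scaled by library size. By that scaling the median KO difference from ZT1 over all tested genes was 0.106 at ZT5, 0.055 at ZT9 and 0.032 at ZT13 (log2). With TMM factors, which set the bulk of genes equal, it was -0.002, -0.004 and -0.018. The shares over all genes thus hold for library size scaling only. Complete separation, with every KO ZT1 library above every KO library of the WT low, was found in 55 genes, where 5.09% of all genes had it. The KO difference was smaller than the WT difference in 134 genes, larger in 16, and under 0.5 times the WT difference in 61. The WT size was set by the choice of genes, so these 3 counts carry no test. Only 5 genes had a KO range over 1. Of the 188 genes that met the rule with a narrower WT range, 65 (34.6%) were lower in KO at their WT low.

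**Figure D2:**
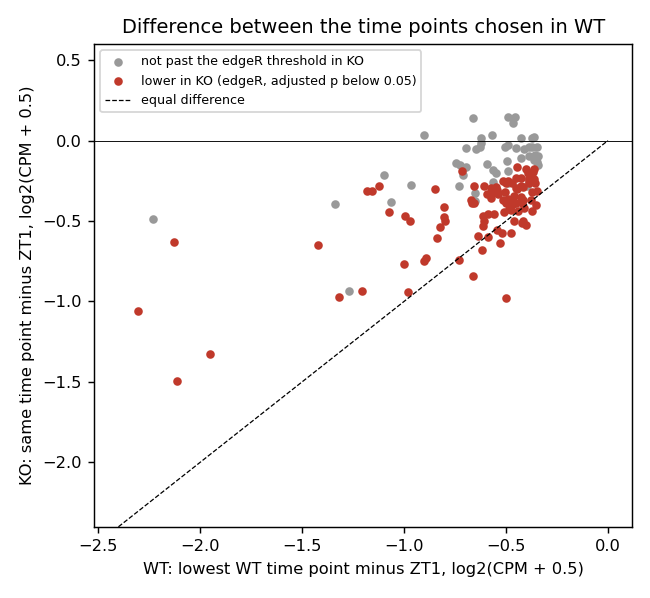
Difference between the lowest WT time point and ZT1 in log2(CPM + 0.5), in KO (vertical axis) against WT (horizontal axis), 1 point per gene. Red genes were lower in KO by the edgeR test and grey ones did not pass it. The dashed line marks equal differences, and 134 of the 150 genes lie above it.

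AAEL005437 encodes a transient receptor potential channel, a cation channel of the family that carries the light response in Drosophila photoreceptors, and had the widest WT range. Its lowest, median and highest CPM in KO were 13.2, 20.3 and 23.3 for ZT1, 12.6, 16.0 and 16.9 for ZT5 and 8.55, 10.8 and 14.2 for ZT9, and the 5 KO libraries of ZT13 had 9.87, 9.33, 6.97, 7.83 and 10.6. In WT they were 14.2, 17.6 and 20.9 for ZT1, 10.9, 13.2 and 15.3 for ZT5, 6.99, 9.21 and 11.1 for ZT9, and 2.30, 3.29 and 3.77 for ZT13. Every KO library of ZT13 lay below every KO library of ZT1, yet above every WT library of ZT13, where the rule favoured low WT levels. It fell by 1.17 in KO at ZT13 (log2, SE 0.14, edgeR adjusted p = 1.51e-05), and the WT difference of log2 means was -2.31.

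AAEL003211 is a beta-carotene dioxygenase, an enzyme of the kind that cleaves carotenoids to retinal, the chromophore of opsins. In KO its lowest, median and highest CPM were 57.7, 92.0 and 118 for ZT1, 54.6, 63.8 and 83.1 for ZT5 and 34.4, 46.2 and 61.1 for ZT9, with 32.3, 44.6, 30.3, 29.2 and 40.9 in the 5 libraries of ZT13. In WT they were 42.2, 45.7 and 49.8 for ZT1, 40.4, 44.8 and 51.4 for ZT5, 32.5, 36.2 and 48.5 for ZT9, and 9.48, 11.4 and 14.7 for ZT13. The gene was higher in KO than in WT at ZT1 in every library, and its KO medians were lower at each later time, whereas all WT libraries of ZT13 lay below all earlier WT libraries. On the log2 scale it fell by 1.39 in KO at ZT13 (SE 0.17, edgeR adjusted p = 1.44e-05), and it fell by 0.99 at ZT9 (SE 0.16, edgeR adjusted p = 0.00175).

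AAEL013077, which has no name or term in the sources used here, had the largest KO difference of the list. Its KO libraries had a lowest, median and highest CPM of 34.5, 39.2 and 45.8 for ZT1, 29.6, 33.6 and 40.0 for ZT5 and 20.8, 23.4 and 28.1 for ZT9, and 12.8, 14.6, 13.7, 12.4 and 15.3 at ZT13. The WT libraries had 37.05, 42.8 and 45.3 for ZT1, 25.3, 29.2 and 31.4 for ZT5, 10.4, 11.3 and 15.2 for ZT9, and 8.62, 9.19 and 10.5 for ZT13. The levels overlapped between KO and WT at ZT1, while at ZT9 and ZT13 no KO library was as low as any WT library. Low WT levels at ZT13 were part of the choice of this gene. The gene fell by 1.59 in KO at ZT13 (log2, SE 0.12, edgeR adjusted p = 1.33e-08).

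AAEL006451, also without a name, showed a WT difference of -2.13 at ZT13 and a shallower KO decline. Its KO libraries had a lowest, median and highest CPM of 49.3, 69.1 and 83.8 for ZT1, 51.3, 58.6 and 74.0 for ZT5, 42.5, 46.4 and 60.7 for ZT9, and 41.3, 50.1, 34.9, 40.2 and 52.5 in the 5 libraries of ZT13. The WT libraries had 48.8, 52.0 and 54.7 for ZT1, 39.9, 43.1 and 56.2 for ZT5, 17.1, 22.7 and 29.6 for ZT9, and 9.54, 11.3 and 14.1 for ZT13. The lowest KO library at ZT13 was thus above the highest WT library at that time, the WT low that the rule used. It fell by 0.68 in KO at ZT13 (log2, SE 0.14, edgeR adjusted p = 0.00265).

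AAEL000596 encodes a myosin, a motor protein, and the study lists it with genes of sensory and visual perception. The gene was lowest in WT at ZT9. In KO its lowest, median and highest CPM were 73.5, 118 and 122 for ZT1, 75.2, 101 and 107 for ZT5 and 52.5, 73.6 and 89.6 for ZT9, with 80.8, 86.3, 75.4, 67.0 and 82.5 in the 5 libraries of ZT13. In WT they were 122, 137 and 143 for ZT1, 88.0, 103 and 112 for ZT5, 41.9, 49.9 and 61.6 for ZT9, and 62.5, 68.7 and 73.7 for ZT13. KO ZT1 and ZT9 libraries overlapped through 1 low library at ZT1 (replicate 5). It fell by 0.72 in KO at ZT9 (log2, SE 0.12, edgeR adjusted p = 0.00250).

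AAEL014964, a gene without a name, was among the widest in WT and did not pass the test in KO. Its KO libraries had a lowest, median and highest CPM of 7.19, 12.4 and 14.2 for ZT1, 9.24, 10.6 and 16.0 for ZT5, 4.46, 9.54 and 11.2 for ZT9, and 10.1, 11.02, 8.29, 8.45 and 12.5 at ZT13. The WT libraries had 16.8, 21.6 and 25.4 for ZT1, 7.67, 10.6 and 14.7 for ZT5, 3.16, 4.06 and 4.77 for ZT9, and 7.07, 9.11 and 13.6 for ZT13. KO libraries of ZT1 and ZT9 overlapped broadly, and the KO log2 fold change at ZT9 was -0.56 (SE 0.19, edgeR adjusted p = 0.0928). At ZT1 every KO library lay below every WT library.

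**Figure D3:**
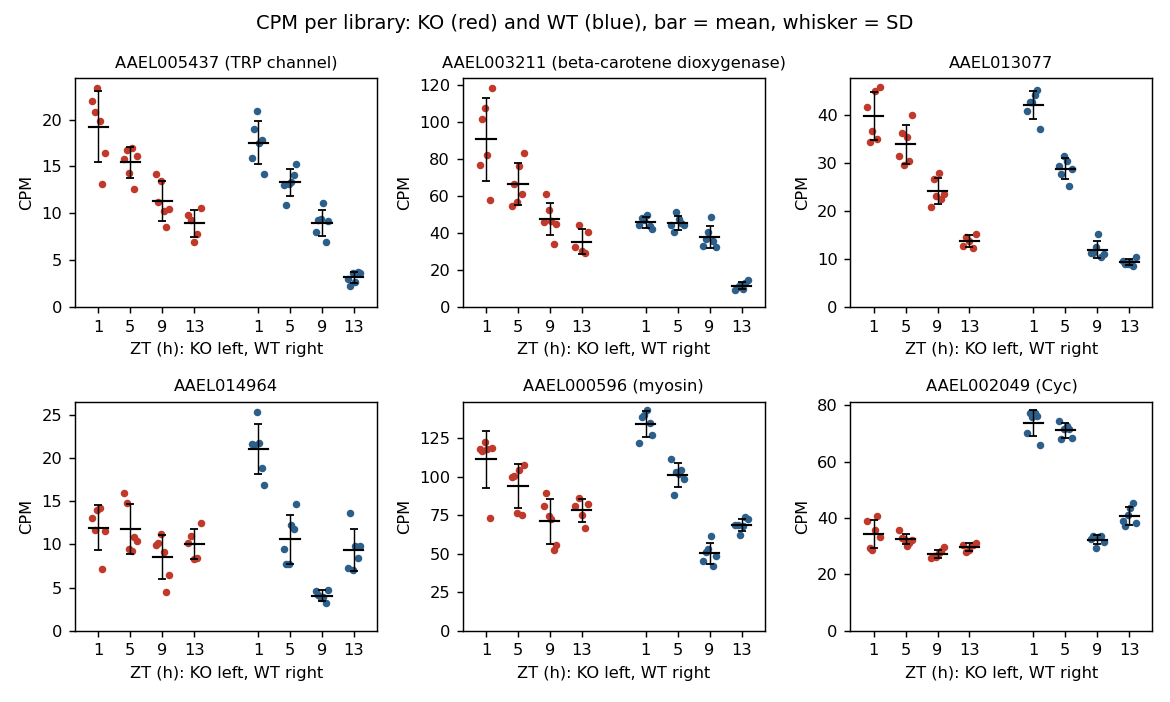
CPM in every library for 6 members, with KO (red) left of WT (blue) and zeitgeber time in hours on the horizontal axis. Points are pools of 10 females, bars are means and whiskers the SD. AAEL005437, AAEL003211 and AAEL013077 decline in both groups, and Cyc (AAEL002049) stays between 25.9 and 40.7 CPM in all KO libraries.

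Cyc itself (AAEL002049), the transcription factor that pairs with Clock and the targeted gene, belonged to the list. Its KO libraries had a lowest, median and highest CPM of 28.6, 34.4 and 40.7 for ZT1, 30.2, 32.4 and 35.6 for ZT5, 25.9, 27.04 and 29.7 for ZT9, and 30.5, 27.9, 28.6, 30.4 and 31.1 at ZT13. The WT libraries had 65.8, 76.1 and 77.4 for ZT1, 68.0, 71.6 and 74.5 for ZT5, 29.4, 32.9 and 33.6 for ZT9, and 37.2, 40.0 and 45.3 for ZT13. Transcript was thus present in every KO library, near the WT low of ZT9 throughout, and KO and WT overlapped at ZT9 only. Between ZT1 and ZT9 it fell by 0.39 in KO (log2, SE 0.10, edgeR adjusted p = 0.0271), and the call was lost with KO ZT1 replicate 1, 4 or 5 or KO ZT9 replicate 1, 2 or 3 left out (adjusted p of 0.0565 to 0.0807). Counts per gene do not show which part of the gene the reads came from.

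A second member with the study's term for the fly circadian rhythm pathway was AAEL022593, a transcription factor by its terms. The lowest, median and highest KO levels were 8.35, 8.98 and 11.1 CPM for ZT1, 6.78, 8.67 and 11.8 for ZT5 and 7.71, 8.70 and 11.3 for ZT9, and the 5 libraries of ZT13 had 9.14, 8.55, 9.45, 8.53 and 10.1. WT levels were 6.34, 8.96 and 9.55 CPM for ZT1, 3.86, 6.26 and 8.31 for ZT5, 3.55, 5.19 and 6.07 for ZT9, and 5.95, 7.20 and 9.30 for ZT13. KO libraries overlapped at every time, with a log2 fold change at ZT9 of -0.11 (SE 0.12, edgeR adjusted p = 0.624). Every KO library of ZT9 was above every WT library of that time, at which the rule favoured low WT levels.

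AAEL023559, named by the study as an angiotensin-converting enzyme of the M2 peptidases, a family that trims small peptides, was nearly absent in KO. The highest KO library of any time point reached 0.417 CPM, whereas WT medians were 52.9, 35.03, 38.2 and 40.2 CPM at ZT1, ZT5, ZT9 and ZT13, and the lowest WT library had 26.6 CPM. It was the 1 member lower in KO at all 4 time points by the edgeR test. At this level no KO time course could be measured.

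Further members with large KO differences were AAEL006004 and AAEL020720, both without a name. AAEL006004 had KO medians of 82.2, 48.7, 60.0 and 42.4 CPM from ZT1 to ZT13 and WT medians of 70.5, 52.5, 60.5 and 34.6 CPM. The gene was low at ZT5, higher at ZT9 and lowest at ZT13 in both groups, and it fell by 0.81 in KO at ZT5 and by 0.99 at ZT13 (log2, SE 0.07 and 0.08, edgeR adjusted p = 6.00e-07 and 1.33e-08). AAEL020720 had KO medians of 21.8, 13.8, 17.2 and 10.1 CPM and WT medians of 12.97, 12.2, 10.8 and 9.12 CPM. Its KO difference at ZT13 of -0.98 was larger in size than the WT difference of -0.50, and the gene fell by 1.08 in edgeR (SE 0.15, adjusted p = 4.85e-05).

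AAEL008760 had similar medians in KO and WT at each time point. KO medians were 18.3, 17.2, 13.6 and 8.85 CPM and WT medians 21.2, 17.9, 13.8 and 8.57 CPM from ZT1 to ZT13. It fell by 1.08 in KO at ZT13 (log2, SE 0.11, edgeR adjusted p = 6.80e-07). AAEL014515 had KO medians of 40.1, 32.2, 33.7 and 18.5 CPM and WT medians of 54.9, 30.1, 43.8 and 22.6 CPM, and it fell by 1.04 in KO at ZT13 (edgeR adjusted p = 0.00433). AAEL014541, at KO medians of 8.62, 9.64, 7.83 and 6.84 CPM and WT medians of 10.1, 6.87, 5.79 and 4.88 CPM, fell by 0.39 in KO at ZT13 (edgeR adjusted p = 0.0295), a call lost with KO ZT1 replicate 1, 4 or 6 or KO ZT13 replicate 2, 4 or 5 left out and in the joint fit of KO and WT (adjusted p of 0.0515 to 0.118).

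AAEL019332 was abundant and erratic. KO medians were 457, 199, 296 and 257 CPM and WT medians 469, 217, 516 and 304 CPM from ZT1 to ZT13, with a highest library of 862 CPM in KO and 947 CPM in WT. Its KO log2 fold change at ZT5 was -0.75 (SE 0.37, edgeR adjusted p = 0.203). The highest KO library of ZT5 had 698 CPM and the highest WT library of ZT5 had 277 CPM.

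At the other end, 8 genes had the smallest KO difference. They were AAEL007197, AAEL008134 (an ABC transporter, which moves substrates across membranes with ATP), AAEL024592, AAEL012783 (an aminopeptidase), AAEL003888, AAEL000845 (a protein tyrosine phosphatase), AAEL027802 and AAEL023854. Their KO differences lay between -0.03 and 0.04 and their WT differences between -0.90 and -0.36. AAEL023854 had KO medians of 39.9, 65.5, 42.1 and 45.7 CPM and WT medians of 40.7, 38.0, 31.7 and 22.7 CPM, so that its highest KO level was at ZT5 (log2 fold change 0.52, edgeR adjusted p = 0.0522). AAEL024592 had 36.2, 40.0, 31.0 and 34.6 CPM in KO and 48.2, 42.3, 34.4 and 31.2 CPM in WT. None of the 8 passed the test in KO at its WT low, the difference they were picked on, so the choice fixed that outcome. It does not show that their KO level was constant. AAEL000845, whose WT low was at ZT5, fell by 0.29 in KO at ZT13 (edgeR adjusted p = 0.0227).

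The study's functional terms, which it lists for genes it had called in these same libraries, allow some members to be grouped by role. The groups were picked after the members were known, and counts are descriptions. In ribosome biogenesis, the assembly of ribosomal subunits in the nucleolus, all 5 members (AAEL004455, AAEL010248, AAEL003469, AAEL003352 and AAEL004364) were lowest in WT at ZT13 and fell in KO at ZT13. Their summed level averaged 490 ± 26.1, 457 ± 12.5, 426 ± 27.8 and 350 ± 21.5 CPM in KO and 469 ± 11.1, 459 ± 15.4, 437 ± 26.5 and 346 ± 8.89 CPM in WT from ZT1 to ZT13 (SD, n = 6, and n = 5 for KO at ZT13). The KO and WT courses were nearly superimposed. AAEL004455, of large subunit assembly by its terms, had KO medians of 50.7, 44.4, 46.4 and 30.8 CPM and WT medians of 44.6, 42.9, 40.9 and 28.9 CPM, and it fell by 0.73 in KO at ZT13 (log2, SE 0.07, edgeR adjusted p = 2.04e-07). Of 86 tested genes with these terms, 31 were lower and 3 higher in KO at ZT13 (8.06% and 7.01% of all tested genes), and their median difference was -0.12.

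Aminopeptidases, which remove residues from the ends of peptides, gave 5 members with another course (AAEL005821, AAEL015247, AAEL012783, AAEL012776 and AAEL012778). All were lowest in WT at ZT5 or ZT9, in the middle of the light phase. Their summed level averaged 464 ± 35.9, 439 ± 43.6, 444 ± 25.8 and 449 ± 11.5 CPM in KO and 495 ± 18.0, 354 ± 18.0, 395 ± 29.0 and 450 ± 32.7 CPM in WT (SD, n = 6, and n = 5 for KO at ZT13). At ZT5 the lowest KO sum of 402 CPM was above the highest WT sum of 369 CPM. The rule chose these genes for low WT levels then or at ZT9, so nothing is read from this gap. AAEL012783 had KO medians of 105, 97.9, 104 and 95.9 CPM and WT medians of 140, 88.6, 112 and 112 CPM. Only AAEL015247 passed the test in KO, where it fell by 0.35 at ZT9 (SE 0.08, edgeR adjusted p = 0.0279). Of the 22 tested genes with this term, 1 was lower and 0 higher in KO at ZT5 (1.27% and 1.03% of all tested genes) and also at ZT9 (2.1% and 0.826%), and at ZT13 1 was lower and 3 higher (8.06% and 7.01%). With so few genes these counts lie near the shares over all genes. Where gene copies are close in sequence, the counting may have split reads between them.

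Other peptidases were fewer. The metallocarboxypeptidases AAEL003424 and AAEL008609, which trim peptides from the other end, did not pass the test in KO, with a summed mean of 59.3, 49.4, 49.8 and 55.2 CPM in KO and 48.8, 33.6, 32.8 and 38.9 CPM in WT from ZT1 to ZT13. The serine endopeptidases AAEL009843 and AAEL008079 cut within proteins. AAEL008079 fell by 0.49 in KO at ZT9 (SE 0.11, edgeR adjusted p = 0.0147), and AAEL009843 had a log2 fold change of -0.41 there (adjusted p = 0.111).

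**Figure D4:**
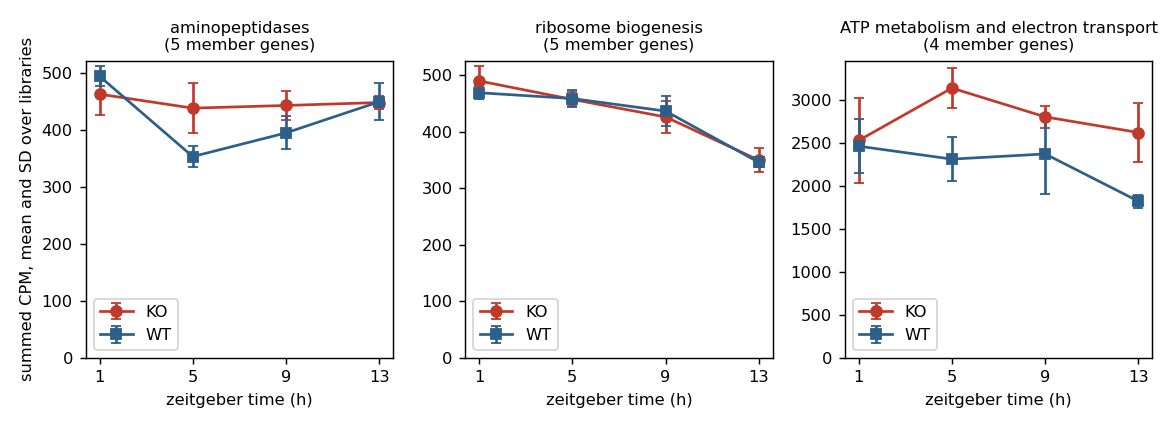
Summed CPM of the members in 3 groups of terms against zeitgeber time in hours, with KO in red and WT in blue, as mean and SD over libraries (n = 6, and n = 5 for KO at ZT13). The ribosome biogenesis sums of KO and WT lie together, and the aminopeptidase sum at ZT5 is 439 CPM in KO and 354 CPM in WT. WT levels chose the members.

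The 4 members of energy metabolism, AAEL006070, AAEL010884 (an ATP transporter by its terms), AAEL004988 and AAEL004457 (an electron carrier of the mitochondrial intermembrane space by its terms), were lowest in WT at ZT13, and none was lower in KO then. Their summed level averaged 2526 ± 490.4, 3135 ± 235, 2800.2 ± 129.9 and 2618 ± 348 CPM in KO and 2459.7 ± 315, 2309 ± 258, 2369 ± 469 and 1819 ± 74.9 CPM in WT (SD, n = 6, and n = 5 for KO at ZT13). The SD was largest in KO at ZT1. AAEL010884 made up most of it, with KO medians of 1352, 1809.8, 1645 and 1371 CPM and WT medians of 1309, 1219, 1308 and 985 CPM. Of 65 tested genes with these terms, edgeR called 0 in KO in either direction at ZT5, ZT9 or ZT13, where 8.06% of all tested genes were lower and 7.01% higher at ZT13, and where at ZT5 and ZT9 a count of 0 is near the shares over all genes (1.27% and 2.1% lower). At an unadjusted p below 0.05 it called 5, 4 and 7 lower and 6, 0 and 0 higher from ZT5 to ZT13, and DESeq2 called 1, 0 and 1 lower and 0 higher.

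Among smaller groups, AAEL017320 carries the study's terms for insect hormone and terpenoid backbone biosynthesis, the route to juvenile hormone, which governs reproduction in the adult female. KO medians were 43.7, 41.8, 31.5 and 30.9 CPM and WT medians 33.6, 24.6, 13.04 and 20.5 CPM from ZT1 to ZT13. Its KO log2 fold change at ZT9 was -0.51 (SE 0.18, edgeR adjusted p = 0.117). The monooxygenase AAEL011850 shares the hormone term and fell by 0.67 in KO at ZT13 (SE 0.12, edgeR adjusted p = 0.00152), and the monooxygenase AAEL003748 fell by 0.92 (SE 0.10, edgeR adjusted p = 3.40e-06). Both lay close to WT, and at ZT13 their summed mean was 18.6 CPM in KO libraries and 17.7 CPM in WT libraries.

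Of 32 tested genes with the carbohydrate-binding term, 8 were lower and 0 higher in KO at ZT13 (8.06% and 7.01% of all tested genes). Its 3 members fell then, AAEL010596 by 0.84, AAEL005293 by 0.43 and AAEL012135 by 0.57 (edgeR adjusted p = 0.00218, 0.0140 and 0.00330). Of the carbonate dehydratases, which interconvert carbon dioxide and bicarbonate, AAEL004930 fell by 0.35 in KO at ZT13 (edgeR adjusted p = 0.00352), and AAEL008828, lowest in WT at ZT9, had a KO log2 fold change of -0.33 then (adjusted p = 0.0645). The ligand-gated ion channel AAEL027520 fell by 0.45 in KO at ZT13 (edgeR adjusted p = 0.00254). AAEL013320, of protein processing in the endoplasmic reticulum, and the chaperone AAEL011584 fell by 0.55 and 0.32 (edgeR adjusted p = 0.00616 and 0.000172).

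The level of the members in KO against WT depended on how libraries were scaled. With TMM factors, which set the bulk of genes equal, 61 members were higher in KO and 8 lower at ZT1 (24.5% and 22.7% of all tested genes). At ZT5 there were 76 higher and 2 lower (15.5% and 15.5% of all tested). At ZT9 63 were higher and 2 lower (16.3% and 16.7% of all tested). At ZT13 87 were higher and 3 lower (18.6% and 17.0% of all tested). The WT libraries in these contrasts also chose the members, so nothing is read from the counts. Scaled by library size alone, the higher members from ZT1 to ZT13 numbered 21, 51, 40 and 58, and the lower ones 27, 4, 7 and 9. By library size the median of all genes was itself lower in KO, with KO minus WT medians of -0.17, -0.09, -0.12 and -0.09 from ZT1 to ZT13 (log2 CPM), and with TMM factors it was 0.02 at ZT1 and nearer to 0 later. The 50 most abundant genes of a library held a median of 29.2% of counts in KO at ZT1 and 25.5% in WT at ZT1. In KO they held 27.3%, 27.2% and 27.7% at ZT5, ZT9 and ZT13. The member median was -0.01 at ZT1 by library size and 0.18 with TMM factors, and at ZT13 0.15 and 0.25.

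Higher in KO at all 4 time points with TMM factors were 28 members (6.76% of all tested genes), and 1 was lower at all 4 (8.19%). The WT libraries that chose the members enter these counts too, so nothing is read from them. Members called at all 4 time points were not counted by library size. At ZT1 the members with the most positive KO minus WT difference were AAEL003211, AAEL020720, AAEL012351, AAEL013347 and AAEL011519, with log2 fold changes of 1.16, 0.87, 0.79, 0.77 and 0.76. AAEL012351 had KO medians of 18.2, 16.9, 16.7 and 15.3 CPM and WT medians of 12.9, 9.40, 8.21 and 7.90 CPM, so that it was higher in KO at every time point. The most negative were AAEL023559, AAEL002049, AAEL014964, AAEL009736 and AAEL014515, the last 4 with log2 fold changes of -0.92, -0.63, -0.54 and -0.34. AAEL009736 had 18.5, 16.7, 18.3 and 17.1 CPM in KO and 29.5, 21.9, 21.5 and 21.1 CPM in WT as medians, with every KO median below every WT median.

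**Figure D5:**
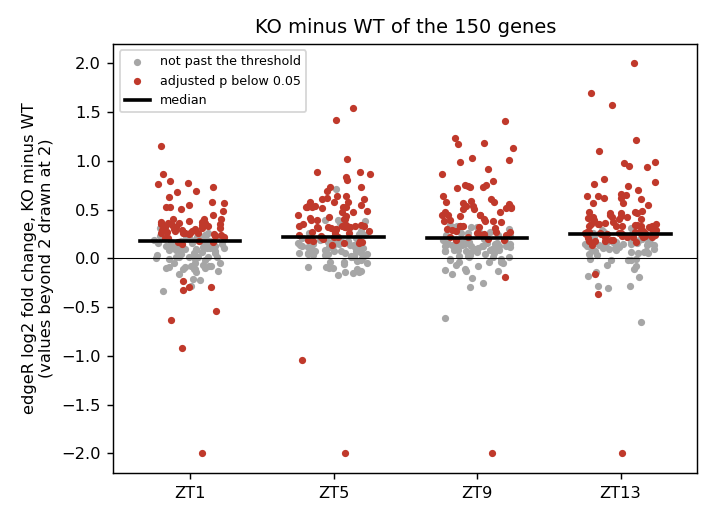
edgeR log2 fold change of KO minus WT with TMM factors for the 150 genes at each time point, with values beyond 2 drawn at 2. Red points passed an adjusted p of 0.05, and the bar is the median of the members, which was 0.18 at ZT1 and 0.25 at ZT13. The point at the lower edge is AAEL023559.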

How the data were processed

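The authors trimmed reads with Trim Galore 0.6.6, aligned them to AaegL5_2 of VectorBase with HISAT2 2.2.1 and obtained gene counts from HTSeq 0.11.3 (versions from the submitters' processing notes). The deposited values are raw whole-number counts per gene in 48 libraries. No source used here gives the strand setting, so counts of overlapping genes carry that limit. Genes took 18.4% to 31.7% of each file's total, and the 5 summary lines that name no gene were left out. In KO the share was 18.4% to 26.5% at ZT1, 22.2% to 31.7% at ZT5 and 21.9% to 30.3% at ZT9. It was 25.3% to 27.9% in the 5 KO libraries of ZT13. Whether these shares bear on the KO time differences was not tested. CPM was computed on the remaining counts, with a pseudocount of 0.5 on the log2 scale. KO time points (23 libraries) and KO against WT at each time point were tested in edgeR 4.0.16 (R 4.3.3) by its quasi-likelihood test. Settings were TMM factors, filterByExpr, Benjamini-Hochberg adjustment over all tested genes and a threshold of 0.05. In simulated KO counts with 200 genes at a 2-fold change at ZT13, the test recovered 159 and called 8 others. Smaller changes were not simulated. The study compared KO with WT by DESeq2's Wald test, and DESeq2 was run as an alternative (version 1.42.0). For rhythms over time the study used dryR, which was not run here. Other alternatives were DESeq2 size factors, no filter, 1 fit of 47 libraries, the replicate block, libraries left out, other membership settings, and library size scaling, which was chosen after seeing the data.

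Members and lists were chosen with earlier results of these data known. Named are the 12 members of widest WT range, the 8 with the largest and the 8 with the smallest KO difference at the WT low, the 5 most positive and 5 most negative in KO minus WT at ZT1, list members, Cyc, and 3 genes on each side of the border. Members of term groups, AAEL022593 and AAEL022261 were named after their values were seen. Of the gene identifiers, 0 matched the reference table, so names come from the study. Of 23 product-name lists, the clock, transporter, photoreceptor and other peptidase lists held 1 member each (AAEL002049, AAEL005437 or AAEL023559) and the others 0, few genes being named.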

Additional observations from a re-analysis of the deposited data

Results flagged for a closer look

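Single libraries lay apart from their group in 5 of the 96 groups examined (12 members of widest WT range in 8 groups), and about 1 group in 20 would do so by chance. AAEL000596 (myosin) had 73.5 CPM in KO ZT1 replicate 5, where the other 5 KO libraries had 117 to 122 CPM. AAEL019332 had 820 CPM in WT ZT1 replicate 4, where the others had 416 to 528 CPM, and 947 CPM in WT ZT13 replicate 6, where the others had 225 to 445 CPM. AAEL014541 had 23.6 CPM in WT ZT1 replicate 6, where the others had 8.20 to 10.3 CPM, and its WT range of 1.16 includes that library. AAEL008760 had 6.81 CPM in WT ZT13 replicate 3, where the others had 8.12 to 8.74 CPM. KO ZT1 replicate 5 held the lowest KO ZT1 level for 67 of the 150 genes, and WT ZT1 replicate 6 the lowest WT ZT1 level for 56.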

How the results depend on the processing

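The count of members lower in KO at the WT low was 99, and 76 to 108 with a library left out, 84 by library size, and 82 to 102 with members chosen under other settings. Members shared with the 150 were 105 to 148 without 1 WT library (105 without WT ZT1 replicate 6), 144 with a pseudocount of 2, 105 and 122 with a minimum of 1 and 10 CPM, and 131 with TMM factors. None of the 14 named genes lower in KO at the WT low changed direction. The sign of the smallest KO differences is not firm and was not compared. Lower in KO at ZT5 were 20 members as reported, 36 with DESeq2, 13 without a filter, 13 with KO ZT13 replicate 1 kept, 38 in 1 fit of 47 libraries and 8 by library size. Higher at ZT5 were 1 as reported, 3 with DESeq2, 0 with that library kept, 2 in 1 fit and 5 by library size. Lower at ZT9 were 44 as reported and 27 with that library kept. KO minus WT counts by library size were 27 lower and 21 higher at ZT1, 4 lower at ZT5, 7 lower and 40 higher at ZT9 and 9 lower at ZT13. Lower at ZT13 were 6 with DESeq2, 5 with its size factors and 1 with that library kept. The causes were not tested.

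With 1 library left out, members lower in KO ranged from 8 to 47 at ZT5, 23 to 62 at ZT9 and 69 to 106 at ZT13, higher at ZT5 from 0 to 2, and KO minus WT lower from 2 to 4 at ZT9 and 2 to 5 at ZT13. Lower at ZT5 were 9, 47, 9 and 11 without KO ZT1 replicates 1, 2, 4 and 6, and 8, 8, 9 and 35 without KO ZT5 replicates 1, 2, 4 and 6. Lower at ZT9 were 23, 25 and 29 without KO ZT1 replicates 1, 4 and 6, and 26, 26 and 25 without KO ZT9 replicates 1, 2 and 3. KO minus WT lower at ZT9 was 4 without WT ZT9 replicate 2, and at ZT13 5 without WT ZT13 replicate 1, 3 or 5. Of 14 named genes lower in KO at the WT low, 11 kept the call in every setting. AAEL002049, AAEL014541 and AAEL012351 did not.

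The replicate block gave 24, 41 and 98 members lower in KO at ZT5, ZT9 and ZT13 and 97 at the WT low. The numbers do not pair the samples. Deviations of 33 same-numbered KO pairs correlated between -0.15 and 0.16 (median 0.005, like the 165 other pairs).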
